A study of Mus musculus with 2 samples.

Results

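Mitochondrial ribosomal protein genes, the nuclear genes for the proteins of the ribosome inside mitochondria, were followed in single mouse CD4 T cells. They were taken as every measured gene whose mouse symbol begins with Mrpl (large subunit) or Mrps (small subunit) and a digit, pseudogenes left out. This gave 77 of the 12432 genes in the deposited table, 48 with Mrpl and 29 with Mrps symbols. The cells had been sorted as CD4 T cells specific for the model peptide 2W1S. They came from C57BL/6 mice carrying Ca-2W1S, a recombinant Candida albicans that makes this peptide, and the tissue was spleen with peripheral lymph nodes. All cells belonged to this 1 group, with no uncolonized control. A March capture of 82 cells (25 in the run Mar1 and 57 in Mar17) and an April capture of 96 cells (48 each in Apr13 and Apr21) were the 2 samples. No source used here gives the number, pooling or age of the mice, so no p-value measures spread between mice. In the main comparison a p-value rests on how differences between groups of cells vary between the 2 captures, pooled over all genes. That spread may be technical.

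The mitochondrial ribosome reads the few messenger RNAs made from mitochondrial DNA, which code for core subunits of the respiratory chain. All of its proteins are coded in the nucleus, made in the cytoplasm and imported, while its ribosomal RNAs come from mitochondrial DNA. T cells that leave rest and divide are known to build up mitochondria and respiratory capacity, and the mitochondrial ribosome is part of that machinery.

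Values are log2(value + 1), where the value is a TPM-like number that sums to between 892206 and 979888 per cell. That unit was read from the values and is not stated in a header. A level below is a mean of these log2 values over cells, and a difference is a difference of such means. The cells held between 2927 and 6990 detected genes each. The markers of the sort were present: the summed log2 values of 6 CD4 T cell genes (Cd3d, Cd3e, Cd3g, Cd4, Lck, Trac) had medians from 44.7 to 49.7 in the groups of cells compared here, and the medians for Cd8a with Cd8b1 were 0. In the run Mar1, 3 cells stood apart, with 65.8% to 93.9% of their signal on mitochondrial DNA genes. They held 19 to 27 detected members and member levels between 0.58 and 0.83, at the low end of the March cells.

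Promoter sequences are given first for the 4 members of smallest limma p in the later comparison with Stmn1, none of which passed it. A pair of abundantly expressed members is added for contrast. The RefSeq windows (build GRCm38.p6) run from 250 bases before to 50 bases after the start of the gene, and 68 of the 77 members had one. Capitals mark a match, on either strand, to 1 of 4 motifs searched: GCGCANGC for NRF1, a regulator of nuclear genes for mitochondria, CCGGAAGT for ETS factors, AAGATGGCG for YY1 and GGGGCGGGG for SP1. Mrpl52 lies at chr14:54426659-54426958 on the plus strand and holds 1 ETS match on its minus strand. Mrpl42 lies at chr10:95501900-95502199 on the minus strand with 1 YY1 match, and Mrpl17 at chr7:105811038-105811337 on the minus strand with 2 NRF1 matches. Mrpl3 lies at chr9:105053018-105053317 on the plus strand with 1 ETS match. Mrpl48, at chr7:100608252-100608551 on the minus strand, and Mrpl20, at chr4:155802628-155802927 on the plus strand, hold none of the 4 motifs. No window shown holds more than 1 kind of motif.
Mrpl52: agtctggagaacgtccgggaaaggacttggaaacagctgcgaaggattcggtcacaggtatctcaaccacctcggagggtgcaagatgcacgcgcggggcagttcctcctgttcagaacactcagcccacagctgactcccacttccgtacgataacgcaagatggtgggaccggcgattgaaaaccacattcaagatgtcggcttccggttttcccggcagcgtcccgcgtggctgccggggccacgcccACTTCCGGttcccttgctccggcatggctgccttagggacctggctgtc
Mrpl42: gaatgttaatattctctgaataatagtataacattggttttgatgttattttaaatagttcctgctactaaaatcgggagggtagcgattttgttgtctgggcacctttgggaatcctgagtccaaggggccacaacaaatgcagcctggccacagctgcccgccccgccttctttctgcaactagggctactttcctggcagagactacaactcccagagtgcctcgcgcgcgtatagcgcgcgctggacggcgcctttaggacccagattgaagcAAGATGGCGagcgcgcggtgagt
Mrpl17: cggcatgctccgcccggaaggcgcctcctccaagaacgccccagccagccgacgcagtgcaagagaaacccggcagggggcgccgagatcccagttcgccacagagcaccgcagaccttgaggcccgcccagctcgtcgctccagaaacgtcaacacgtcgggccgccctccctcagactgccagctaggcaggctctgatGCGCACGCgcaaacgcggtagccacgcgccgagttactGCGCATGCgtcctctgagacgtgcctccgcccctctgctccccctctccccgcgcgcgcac
Mrpl3: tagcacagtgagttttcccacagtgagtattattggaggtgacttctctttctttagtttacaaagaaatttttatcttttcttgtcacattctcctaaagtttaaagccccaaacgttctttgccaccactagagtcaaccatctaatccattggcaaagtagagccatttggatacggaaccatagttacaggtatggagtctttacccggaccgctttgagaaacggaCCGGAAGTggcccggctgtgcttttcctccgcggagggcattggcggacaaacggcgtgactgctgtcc
Mrpl48: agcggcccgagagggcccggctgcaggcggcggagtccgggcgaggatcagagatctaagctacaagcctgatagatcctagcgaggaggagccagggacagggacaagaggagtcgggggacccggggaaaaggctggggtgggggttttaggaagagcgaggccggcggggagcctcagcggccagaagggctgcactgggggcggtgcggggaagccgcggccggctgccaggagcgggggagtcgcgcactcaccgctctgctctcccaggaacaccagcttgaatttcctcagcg
Mrpl20: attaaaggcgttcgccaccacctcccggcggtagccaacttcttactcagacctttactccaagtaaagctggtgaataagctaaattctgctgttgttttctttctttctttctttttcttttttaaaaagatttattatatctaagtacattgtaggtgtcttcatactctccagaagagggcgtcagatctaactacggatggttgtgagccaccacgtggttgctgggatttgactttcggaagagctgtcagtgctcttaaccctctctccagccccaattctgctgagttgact

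Across the 68 member windows, the NRF1 letters were found in 20 (29.4%), against 20.9% of the 8577 genes of the table with a window and 12.2% of all 20592 windows. The ETS letters were found in 10 (14.7%), against 9.06% and 4.91%. The YY1 letters were found in 8 (11.8%), against 3.52% and 1.79%. The SP1 letters were found in 13 (19.1%), against 20.5% and 13.9%. The median GC content of the member windows was 58.5%, against 60.3% for the genes of the table. These matches describe letters in a window and were not tested for use by a factor.

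Most members were seen in fewer than 50% of cells, but where they were seen their signal was seldom faint. The median member had a value above 0 in 40.2% of March and 37.5% of April cells, against 36.6% and 33.3% for the median gene of the table. At a linear value of at least 1 the members' medians were 31.7% and 30.2%, and those of all genes 17.1% and 16.7%. Of the members' positive values 21.4% lay below a linear value of 1, against 36.6% for all genes. By single member this share ran from 0% to 63.0%. The median member level was 1.41 in March and 1.64 in April, against 0.74 and 0.77 for all genes. At least 90% of cells held a positive value for 8 members in March and 6 in April, and under 20% did for 10 and 13. The order of the members was much the same in both captures, with a Spearman rho of 0.882 over the 77 members. A typical March cell had 35 of the 77 members detected (19 to 61), and a typical April cell 33 (23 to 62).

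**Figure D1:**
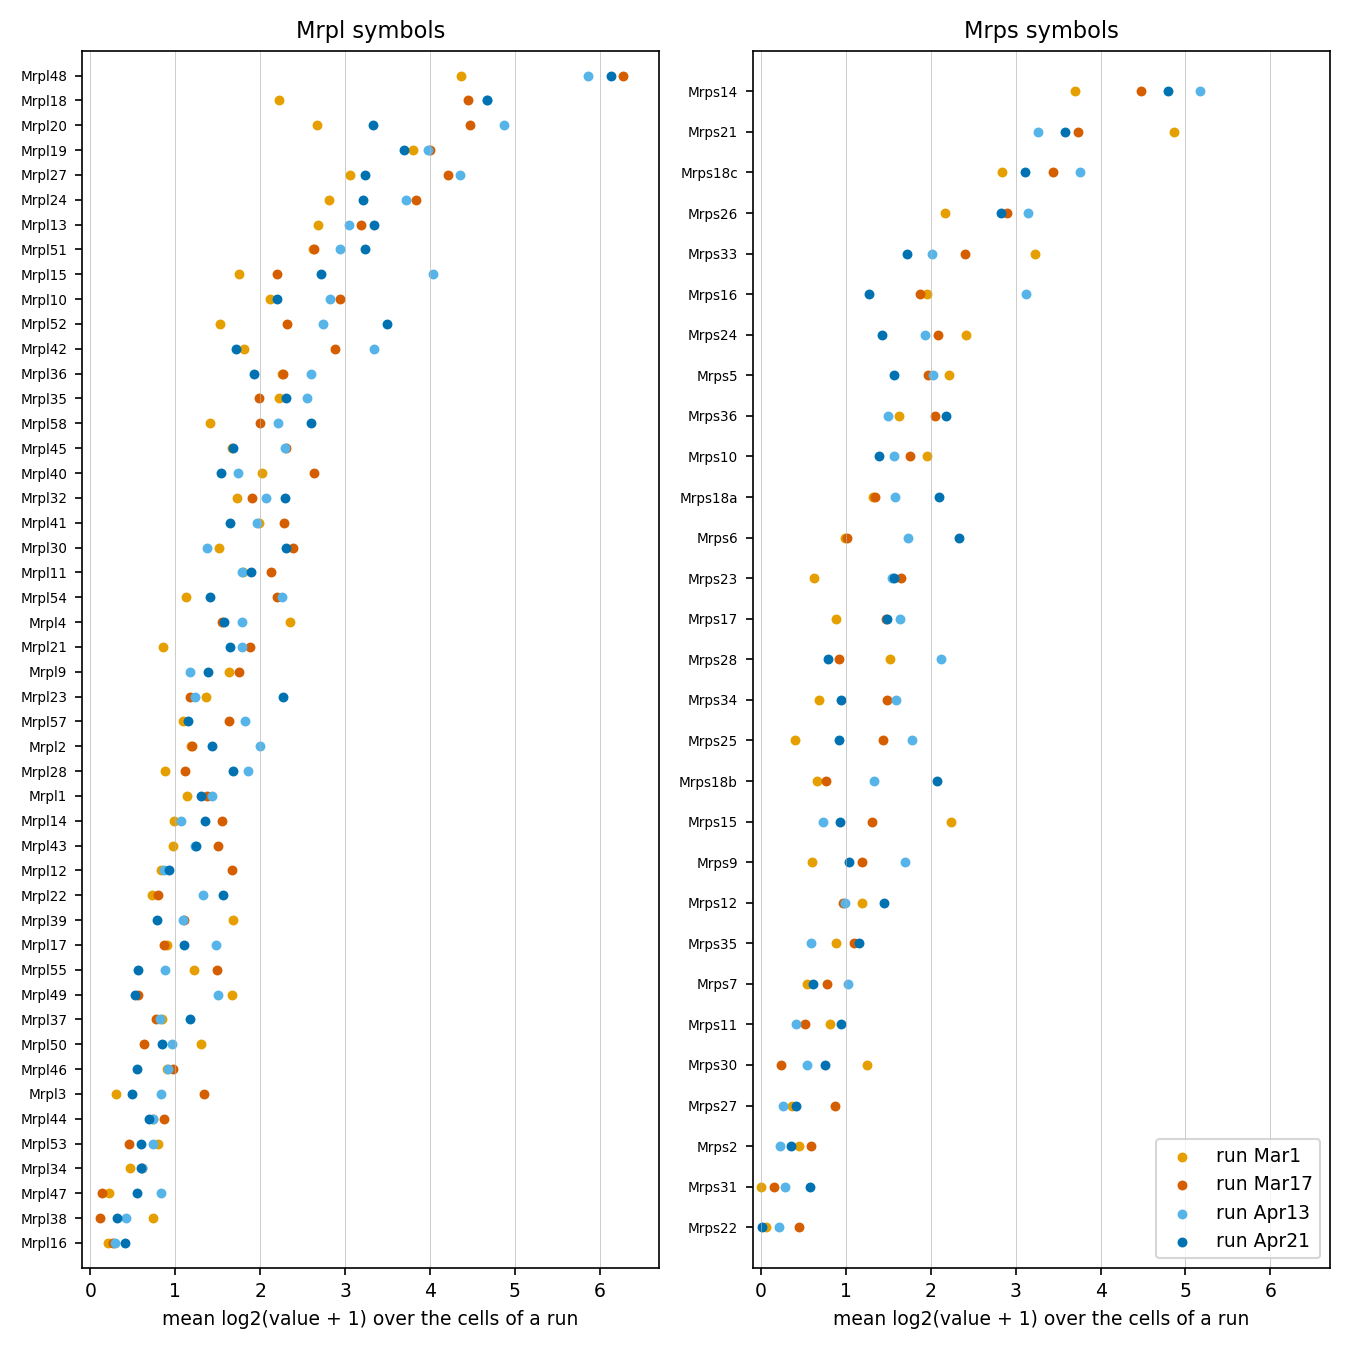
Mean level of each of the 77 members (log2(value + 1)) over the cells of each of the 4 runs, 1 point per run and 1 row per member, ordered by level within Mrpl (left) and Mrps (right) symbols. Mrpl48 leads the Mrpl genes, with its run Mar1 point at 4.37 below the other runs, and the 4 points of Mrpl19 lie close together near a level of 4.

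Mrpl48, a large subunit protein gene, had the highest level, with 5.70 in March and 6.00 in April. Its run means were 4.37 in Mar1, 6.28 in Mar17, 5.87 in Apr13 and 6.13 in Apr21. In March 92.7% of cells held a value above 0 (exact Clopper-Pearson 95% interval 84.8% to 97.3%), and in April 89.6% did (81.7% to 94.9%). Intervals on shares of cells cover counting error only. Mrpl48 (chr7:100545751-100608301 in GENCODE vM21, the same build) shares 708 exon bases with Rab6a on the opposite strand. The kit does not mark strand, so reads in shared stretches cannot be told apart. Rab6a itself stood at 0.42 in March and 0.41 in April. Mrps14 followed with 4.24 and 4.99, Mrpl18 with 3.77 and 4.67, and Mrpl20 with 3.92 and 4.11. The cell-to-cell SDs of these genes, 3.08 to 4.08, exceed the gaps between neighbours in this order. Mrpl18 shares 141 exon bases with Tcp1, a highly expressed gene of the opposite strand (4.70 and 4.49).

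Mrpl19, another large subunit protein gene, had the smallest SD over cells among the 10 members of highest level. It reached a linear value of at least 1 in all 82 March and all 96 April cells (intervals 95.6% to 100% and 96.2% to 100%), and its lowest single-cell value was 1.19. It was the 1 member among 105 genes of the table with that property. Its level was 3.94 ± 1.57 in March and 3.84 ± 1.54 in April (SD over 82 and 96 cells), and its run means stayed within 0.5 of one another. Of 405 genes with a level within 0.5 of Mrpl19, 8 had a smaller SD over cells. Mrpl19 (chr6:81957851-81965958) shares 1962 exon bases with Gcfc2 of the opposite strand, itself at 0.12 and 0.20. In single cells the Spearman rho of Mrpl19 with Gcfc2 was -0.13 in March and 0.27 in April. Whether opposite-strand reads enter the Mrpl19 value was not tested.

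Mrps22, Mrps31 and Mrpl16 had the lowest levels. Mrps22 had a value above 0 in 7 of 82 March and 3 of 96 April cells, Mrps31 in 4 and 9, and Mrpl16 in 5 and 7. These 3 members fell below the filter of 10% of cells and were not tested further. Exons of other annotated genes overlapped those of 32 members, of which 28 had an overlap on the opposite strand and 7 on the same strand. The members were spread over 17 chromosomes. Their exon length was unrelated to level (rho 0.00 over 77 members) and weakly related to the share of faint positive values (rho 0.33).

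Large subunit genes stood somewhat above small subunit genes. The median level was 1.64 for the 48 Mrpl and 1.24 for the 29 Mrps genes in March, and 1.72 against 1.48 in April. Ranges overlapped almost wholly, from 0.17 to 5.70 against 0.11 to 4.24 in March. Within single cells the mean of the Mrpl genes minus that of the Mrps genes was 0.30 ± 0.62 in March and 0.33 ± 0.67 in April (SD over cells). The Mrpl mean was the higher one in 54 of 82 March cells (65.9%) and 67 of 96 April cells (69.8%). By run the mean difference was 0.10 in Mar1, 0.39 in Mar17, 0.37 in Apr13 and 0.29 in Apr21, so it was smallest in Mar1. The proteins of Mrps18a and Mrps30 sit in the large subunit despite their names, and with both counted there the differences were 0.23 and 0.28.

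The Mrps18 paralogs, whose near relatives share part of their sequence, differed in level in March, and Mrps18c stood above the other two in both captures. Mrps18c stood at 3.26 in March and 3.43 in April. Mrps18a stood at 1.33 and 1.84, and Mrps18b at 0.73 and 1.70, so this pair was close in April (2.09 and 2.08 in the run Apr21). How reads common to these paralogs were assigned is not stated in any source used here.

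Other named members showed the usual mixture of empty and high cells. Mrpl12, whose protein also binds the mitochondrial RNA polymerase, had levels of 1.41 and 0.90, with values above 0 in 37 of 82 and 23 of 96 cells. Mrpl11, a protein of the stalk base, had 2.03 and 1.84. Mrpl58, a peptidyl-tRNA hydrolase built into the large subunit, had 1.82 and 2.40. Mrps12 and Mrps5, proteins of the decoding region of the small subunit, had 1.04 and 1.22, and 2.04 and 1.79.

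Members moved together over cells only weakly, and slightly more than genes in general. For the 55 members detected in at least 25% of cells of both captures, the median Spearman rho over 1485 pairs was 0.053 across 82 March cells and 0.033 across 96 April cells. The same medians over all 6912 genes in that detection range were 0.037 and 0.020. By subunit they were 0.065 and 0.038 for 36 Mrpl genes, and 0.046 and 0.022 for 19 Mrps genes. In April the Mrps genes thus lay next to all genes. Cells of a capture share library and depth, so these are descriptions. With the number of detected genes regressed out of the ranks, the members' medians were 0.019 and 0.016 and those of all genes 0.0083 and 0.0062. In sparse values correlations this small carry little information. Among genes detected in 25% to 50% of cells the members' medians were 0.046 and 0.036, against 0.027 and 0.013 for all genes. For genes detected in 75% to 100% of cells they were 0.085 and 0.062, against 0.047 and 0.030. With detected genes regressed out, that last band reversed in March, with 0.0044 for members and 0.018 for all genes.

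Respiratory chain, proteasome, proliferation and mitochondrial DNA genes had higher median rho than the members in both captures. The median rho was 0.095 and 0.082 within 68 nuclear genes of the respiratory chain, 0.084 and 0.10 within the 14 genes of the proteasome core, and 0.143 and 0.142 within 20 proliferation genes. It was 0.272 and 0.269 within the 13 genes of mitochondrial DNA. Within 17 factors of mitochondrial translation (initiation, elongation, assembly) it was 0.062 and -0.0021, above the members in March and below them in April. Within 5 mitochondrial tRNA synthetases and related enzymes it was 0.029 and 0.091, below the members in March and above them in April.

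**Figure D2:**
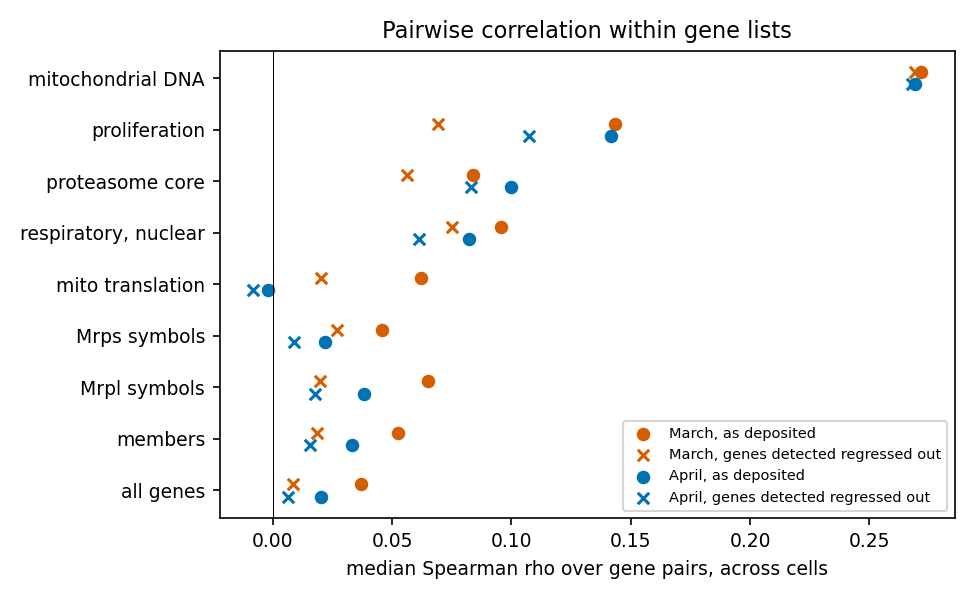
Median Spearman rho over gene pairs across single cells, for each gene list (rows), in March (orange, 82 cells) and April (blue, 96 cells). Circles are values as deposited and crosses are ranks with genes detected regressed out. The members lie at 0.053 and 0.033, next to all genes and below the respiratory chain, proteasome and mitochondrial DNA lists.

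Of the 55 members, 40 in March and 45 in April were more correlated with the other members than with the rest of the genes by median rho, 35 of them in both captures. With detected genes regressed out these counts were 38, 42 and 32. The same count was not made for other gene lists, and the members share pairs. These counts therefore have no background share beside them and are descriptions only. Mrpl36 had the highest median rho with the other members, 0.131 in March and 0.045 in April, followed by Mrpl54 (0.084 and 0.089) and Mrpl20 (0.093 and 0.074). Mrps23 (-0.0032 and -0.016), Mrps5 (-0.033 and 0.021) and Mrpl19 (0.0074 and -0.0021) had the lowest. The mean of the Mrpl genes and the mean of the Mrps genes correlated over cells with rho 0.304 in March and 0.332 in April, and 0.222 and 0.225 with detected genes regressed out.

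As an average per cell, the members followed the nuclear respiratory chain genes more closely than genes of mitochondrial DNA. The member level ran from 0.58 to 3.99 in March (median 1.63) and from 0.96 to 4.73 in April (median 1.67). Its rho with the mean of the nuclear respiratory chain list was 0.549 over 82 March and 0.640 over 96 April cells, and 0.438 and 0.548 with detected genes regressed out. By run it was 0.652 in Mar1, 0.496 in Mar17, 0.718 in Apr13 and 0.531 in Apr21. With the proteasome core it was 0.507 and 0.538, and 0.410 and 0.450 with detected genes regressed out. With the proliferation list, which holds Stmn1, it was 0.529 and 0.450 (0.708 in the run Mar1), and 0.343 and 0.311 after that regression. With the mean of the 13 mitochondrial DNA genes it was 0.083 and 0.088, and with the mean of the mitochondrial translation factors 0.265 and 0.351. The member level also followed the number of genes detected per cell, with rho 0.520 and 0.462. All of these points share cells and depth, and no test was made.

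**Figure D3:**
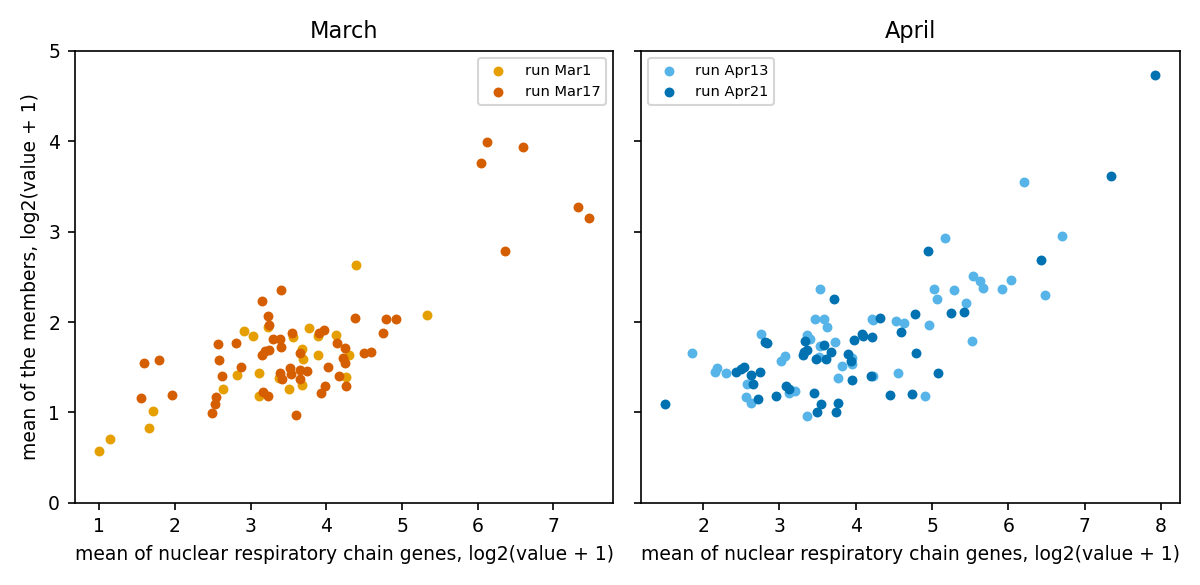
Mean of the 77 members against the mean of 69 nuclear respiratory chain genes (both log2(value + 1)), 1 point per cell, in March (left, rho 0.549) and April (right, rho 0.640), coloured by run. In both captures a few cells with the highest respiratory chain means also have member levels above 2.5.

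Stmn1 codes for stathmin, a microtubule regulator abundant in dividing lymphocytes. Cells in the top 25% by Stmn1 within each capture (19 of 82 in March, 24 of 96 in April) were compared with the others. Few cells held Stmn1 at all (23.2% in March and 34.4% in April), so the March cut separated cells above 0 from cells at 0. In April the lowest Stmn1-high cell stood at 1.44 and the highest other cell at 1.29, and 14 cells lay within 0.5 of the cut. Mean levels per capture and class gave 4 libraries, tested with limma with the capture as a block and 1 residual degree of freedom.

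No single member passed this test, but members as a list lay higher in Stmn1-high cells than genes in general did. Of the 74 members tested, 0 had an adjusted p below 0.05 in limma, the smallest being 0.074 for Mrpl52, while 0.704% of all 10794 genes tested were called higher. At an unadjusted p below 0.05, 23 of 74 members (31.1%) were higher and 0 were lower, against 9.91% and 1.33% of all genes. All genes had a lower median level than the members, and no background of like level was used. The share higher was larger in nuclear respiratory chain (29 of 69, 42.0%) and proteasome core genes (9 of 14, 64.3%). It was also larger in proliferation genes (18 of 25). Mitochondrial translation factors (7 of 33) and mitoribosome genes under other names (1 of 5) had smaller shares. So did mitochondrial tRNA synthetases and related enzymes (1 of 14) and mitochondrial DNA genes (0 of 13). The median difference was 0.59 for members and 0.14 for all genes, and 63 of 74 members (85.1%) had a positive difference, against 66.9% of all genes. The members' median was 0.53 in March and 0.57 in April, and 51 of 74 (68.9%) were positive in both captures, against 39.3% of all genes. With the top 25% drawn within each run the medians were -0.09 in Mar1, 0.51 in Mar17, 0.30 in Apr13 and 0.43 in Apr21. Mar1 thus had no upward shift, with 4 Stmn1-high cells in that run. These include a mostly mitochondrial cell (65.8% of its signal) with Stmn1 of 1.90 and a member level of 0.71. Its part in the Mar1 median was not tested. Positive differences in all 4 runs, with classes drawn within each run, were found for 12 of 74 members (16.2%), against 9.52% of all genes.

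The Stmn1-high cells were also the richer libraries. They held a median of 5539 detected genes against 5158 in March, and 5071.5 against 4905.5 in April. Their mitochondrial share of signal was 6.87% against 7.62%, and 7.89% against 8.47%. The summed CD4 T cell markers had medians of 48.4 against 44.7 in March and 48.8 against 49.7 in April. For markers of other cells the median sums were low in both classes, but single cells reached high values. The B cell genes Ebf1 and Pax5 had medians of 1.88 against 2.11 in March, with maxima of 9.63 and 18.2, and 1.67 against 1.91 in April, with maxima of 6.88 and 4.75. The myeloid genes Itgam and Csf1r had medians of 1.09 against 0.71 (maxima 2.89 and 10.4) and 1.57 against 0.38 (3.36 and 8.0). Cd8a with Cd8b1 had medians of 0 in each class, with maxima of 9.07 and 10.9 in March and 10.7 and 7.30 in April. The NK gene Klrb1c also had medians of 0, with maxima of 10.4 and 7.04 in March and 0 and 5.86 in April. The part of these markers and of depth in the member differences was not tested beyond the pairing that follows. With each Stmn1-high cell paired to 1 other cell of like gene number, the members' median difference was 0.55 and that of all genes 0.05. At the unadjusted threshold 16 of 74 members (21.6%) were higher and 2 lower, against 7.38% of all genes higher and 208 of 10794 lower. When the linear values were averaged before taking the log, the median was 0.16 and 41 of 74 members were positive, while the median of all genes was -0.21. On that scale 0 members were higher and 2 were lower at the unadjusted threshold, and of all genes 177 were higher and 513 lower. After quantile normalization of cells the median was 0.32, with 49 of 74 positive, against -0.04 for all genes. By median the members stood above all genes on each of these scales.

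The members with the smallest p were large subunit genes. Mrpl52 had levels of 3.31 in Stmn1-high and 1.70 in other cells in March, and 4.61 and 2.63 in April. Its difference was 1.80 ± 0.54, with limma adjusted p 0.074. Here and below, ± on a difference between the classes is limma's SE. That SE rests on a variance pooled over genes, not on the gene's own 4 libraries. It was positive in all 4 runs, from 0.91 in Mar17 to 2.28 in Apr13.

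Mrpl42 had 3.34 and 2.32 in March and 4.43 and 1.90 in April, a difference of 1.77 ± 0.54 (limma adjusted p 0.077). In March fewer Stmn1-high than other cells held it (47.4% against 54.0%), so there the higher mean came from fewer, higher cells. Mrpl17 had 2.02 and 0.54 in March and 2.20 and 0.99 in April, a difference of 1.35 ± 0.43 (limma adjusted p 0.10). It reached a linear value of 1 in 42.1% of Stmn1-high and 7.94% of other March cells, and in 37.5% and 18.1% in April. Mrpl3 had 2.33 and 0.62 in March and 1.14 and 0.50 in April, a difference of 1.17 ± 0.40 (limma adjusted p 0.15). All of these genes had positive differences in each run.

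Members on the lower side were few. Mrpl32 had 1.57 in Stmn1-high and 1.94 in other cells in March and 1.26 and 2.49 in April, a difference of -0.80 ± 0.46 (limma adjusted p 0.53), and it was negative in all 4 runs. Mrps18b (-0.55), Mrpl50 (-0.48) and Mrps5 (-0.34) also had negative differences, with limma adjusted p from 0.61 to 0.89. Mrps5 was positive in April alone, by 0.10, and negative in March, by -0.79. For Mrpl48, the member of highest level, the difference was 0.06 ± 0.59, and Mrpl12 differed by -0.02 ± 0.40.

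**Figure D4:**
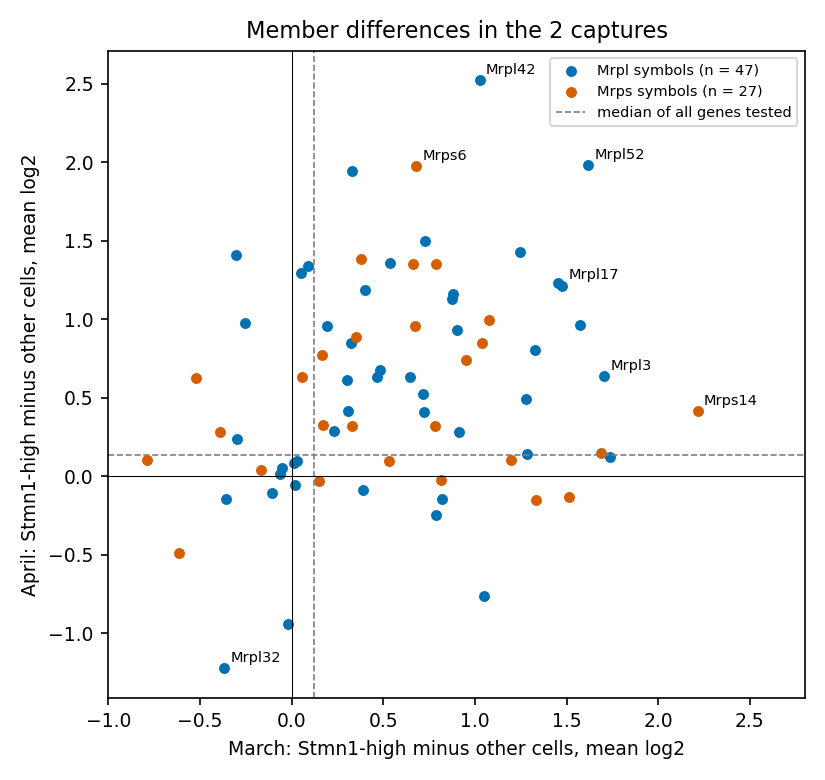
Difference in mean log2 value between Stmn1-high and other cells for each of the 74 tested members, March on the x axis and April on the y axis, with Mrpl genes in blue and Mrps genes in orange. Dashed lines mark the medians of all genes tested in each capture, and 51 of 74 members lie above and to the right of the solid zero lines, with Mrpl52 and Mrpl42 high in April.

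The difference between subunits was not tested. The median difference was 0.59 for 47 Mrpl genes and 0.59 for 27 Mrps genes. Past the unadjusted threshold were 14 Mrpl genes (29.8%) and 9 Mrps genes (33.3%), all higher, against 9.91% of all genes higher. By capture it was 0.48 in March and 0.63 in April for Mrpl genes, and 0.66 and 0.32 for Mrps genes. With the top 25% drawn per run, differences were positive in all 4 runs for 11 of 47 Mrpl genes (23.4%) and 1 of 27 Mrps genes (3.70%), against 9.52% of all genes. With that draw, 7 of 47 Mrpl genes (14.9%) and 1 of 27 Mrps genes (3.70%) were higher at the unadjusted threshold, against 5.24% of all genes. Among the other fixed lists, 5 mitoribosome genes under other names had a median of 0.46 with 0 called. Of these, Chchd1 had the smallest p (1.28 ± 0.47, limma adjusted p 0.18). Of 33 mitochondrial translation factors 0 were called (median 0.30), with Tsfm, an elongation factor, at 1.47 ± 0.49 (limma adjusted p 0.13). Of 14 mitochondrial tRNA synthetases and related enzymes 0 were called (median 0.26), and 0 of the 13 mitochondrial DNA genes (median 0.13).

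Genes of the nuclear respiratory chain had a median of 0.99, and 3 of 69 were called higher in limma, all of them complex I subunits: Ndufb8 (adjusted p 0.019), Ndufs6 (0.022) and Ndufa1 (0.026). Ndufs6 shares 30 exon bases with the member Mrpl36 on the opposite strand. The proteasome core had 1 of 14 called (Psma1, limma adjusted p 0.020) and a median of 1.38. Proliferation genes had 6 of 25 called, among them Mcm2, Rrm2, Mcm5 and Ccnb2, and a median of 1.19. That list contains genes known to accompany Stmn1 in dividing cells. The calls in these 3 lists were not stable: of the 76 genes called higher in all, 0 calls were made without the capture block, with every Stmn1-positive cell as the class or with the top 25% drawn per run, and 1 without the 3 mostly mitochondrial cells.

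Single cells showed where the shift lay. Cells with no Stmn1 had a member level of 1.58 ± 0.39 in March and 1.68 ± 0.44 in April (SD over 63 cells each). Cells with a Stmn1 value above 0 and below 4 had 1.71 ± 0.81 (12 cells) and 1.64 ± 0.33 (21 cells). Cells with a Stmn1 value of 4 or above had 2.87 ± 0.86 (7 cells) and 2.69 ± 0.92 (12 cells). No cell lay between 3.01 and 4.61, and the division at 4 was placed in that gap after the values had been seen. On this scale cells of low positive Stmn1 had mean levels near those of cells at 0, and cells of high Stmn1 had higher ones.

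The cells at Stmn1 of 4 or above also held more genes, with medians of 6282 in March and 5673.5 in April, against 5158 and 4912 in cells at 0. Their respiratory chain means were 6.05 and 5.98 (medians over cells), against 3.40 and 3.68. The member share of total signal did not follow the same steps. Its medians in March were 0.548% at 0, 0.487% between 0 and 4 and 0.635% at 4 or above. In April they were 0.534%, 0.628% and 0.643%, and in the run Apr21 the middle range was the highest (0.770% against 0.692% at 4 or above). The shift appeared in both subunits, with medians of 3.30 for Mrpl and 2.89 for Mrps genes in March, against 1.64 and 1.34 in cells at 0. By run, median member levels at Stmn1 of 4 or above were 2.07 in Mar1 (1 cell), 3.21 in Mar17 (6 cells), 2.42 in Apr13 (8 cells) and 3.15 in Apr21 (4 cells).

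**Figure D5:**
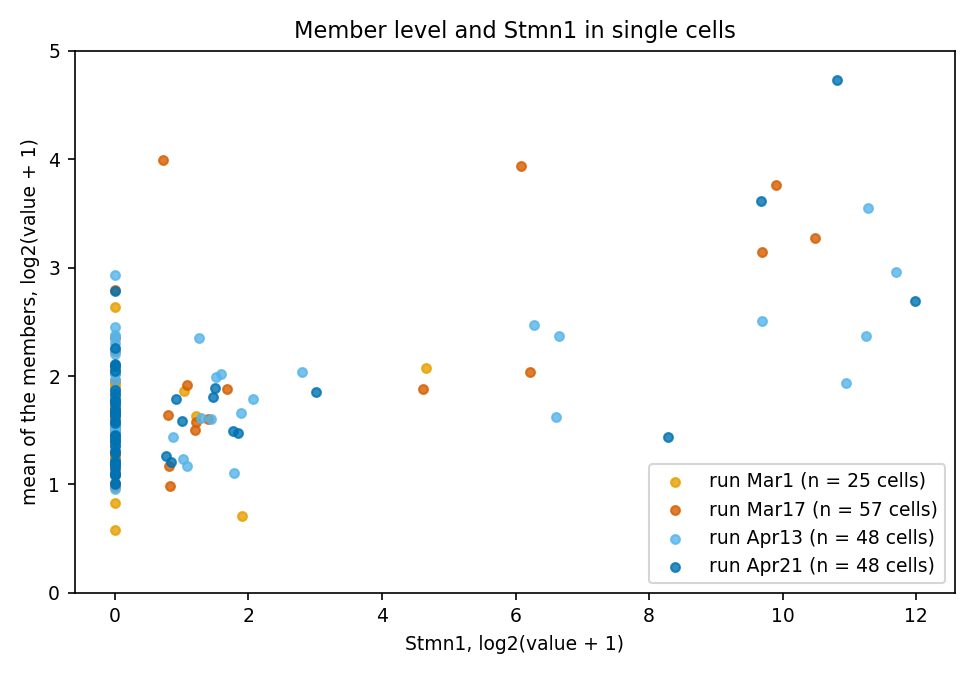
Mean of the 77 members against Stmn1 (both log2(value + 1)), 1 point per cell, coloured by run. Cells with Stmn1 below 4 mostly stay under 3, and most cells with Stmn1 near 10 or above lie between 2 and 5, with 1 run Mar17 cell of Stmn1 0.72 at 3.99.

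Member levels above those of all other-class cells were reached by 5 Stmn1-high cells in March (3.15 to 3.99) and 4 in April (2.96 to 4.73). Of these 9, 8 had Stmn1 of 4 or above. The exception was a Mar17 cell with Stmn1 of 0.72 and the highest March member level, 3.99. Not every cell of high Stmn1 was raised: member levels among cells at 4 or above went down to 1.88 in March and 1.43 in April. Doublets were not called, and their part in these cells was not tested.

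With Stmn1 of at least 4 as the class, 11 of 74 members (14.9%) passed limma's adjusted p of 0.05, all of them higher, against 4.31% of all genes. Because that cut was chosen with these values in view, the calls describe these cells and are no independent support. The 11 were Mrpl46, Mrpl17, Mrpl52, Mrpl14, Mrpl27, Mrpl42, Mrpl18, Mrpl21 and Mrpl39 of the large subunit and Mrps14 and Mrps21 of the small. Mrpl46 led with 3.77 against 0.68 in March and 3.12 against 0.39 in April. It shares 173 exon bases with Mrps11, another member, on the opposite strand. Mrpl42 stood at 7.24 against 1.86 in April but at 2.35 against 2.57 in March. When cells were also paired by gene number (7 with 7 in March, 12 with 12 in April), 1 member (1.35%) was called, Mrpl46, with limma adjusted p 0.047, against 0.639% of all genes. The members' median difference was 1.10 without and 1.05 with that pairing, against 0.26 and 0.10 for all genes. The pairing did not remove the gap in gene number. The cells of high Stmn1 held medians of 6282 genes in March and 5673.5 in April, and their paired cells 6089 and 5408.

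As a rank correlation, the relation was modest. The member level had rho 0.298 with Stmn1 in both captures, and 0.145 in March and 0.213 in April with detected genes regressed out. By run rho was 0.12 in Mar1, 0.351 in Mar17, 0.301 in Apr13 and 0.283 in Apr21. Over the 55 members the median rho of a single member with Stmn1 was 0.090 and 0.097, against 0.059 and 0.045 for all genes in that detection range.

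Between months there was no common shift. The April minus March difference had a median of 0.06 over 74 members and 0.03 over all genes, and 42 of 74 members were higher in April. Each month is 1 sample, so no test was made. Both April runs lay above both March runs for 17 members, against 22.9% of all genes, and below them for 11, against 14.6%, shares of the members close to that background. Without the Mar1 cells the median difference was -0.05.

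Mrpl15 had the largest April excess among members whose runs did not overlap, with run means of 1.75 and 2.20 in March and 4.04 and 2.72 in April. Mrpl52 went from 1.52 and 2.31 to 2.75 and 3.50, and Mrps6, which shares 159 exon bases with Slc5a3 on the same strand, from 0.98 and 1.01 to 1.73 and 2.33. On the lower side, Mrpl40 went from 2.02 and 2.64 to 1.74 and 1.54, Mrps33 from 3.23 and 2.40 to 2.01 and 1.71, and Mrps15 from 2.23 and 1.31 to 0.73 and 0.93. Month and run cannot be told apart in these differences.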

How the data were processed

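Single cells were captured on the Fluidigm C1 and made into libraries with the SMART-Seq v4 kit, per the labels' protocols, without molecular identifiers. The authors deposited 1 table of log2 values, read here from the values as log2(TPM-like value + 1), for 12432 genes in 178 cells. The build is mm10 per the submitters' processing notes, and the aligner and counter are not stated in any source used here. Read depth is unknown. Ensembl IDs were matched to symbols for 12163 genes and not for 269, and 0 columns were left unmapped.

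The linear value is 2 to the power of the log2 value, minus the pseudocount of 1. Runs within a capture count as 1 replicate. Genes detected in at least 10% of cells were tested with limma 3.58.1 (R 4.3.3, trend, two-sided, Benjamini-Hochberg) on mean log2 values per capture and Stmn1 class, with the capture as replicate block because both classes came from the same captures. limma pooled the variance over all genes (10795 degrees of freedom after pooling), so its p-values lean on genes varying alike. The script was tested on simulated data. Correlations used SciPy 1.17.1. Members named were the 5 highest and 3 lowest levels, the 4 smallest p per direction, the 3 highest and 3 lowest median rho, the 3 largest month differences per direction without run overlap, and 9 of known role or interest. Members outside that rule (Mrps30, Mrps11, Mrpl14, Mrpl21, Mrpl27, Mrpl39, Mrpl46, Mrps21) were named after their values were seen or for their annotation. The members and lists were chosen with earlier results of these data known. Markers of CD4 T, CD8 T, B and myeloid cells gave 0 calls in the Stmn1 comparison, and 0 erythroid markers were measured. Alternatives changed the pseudocount, filter, Stmn1 cut, cells, normalization and detection threshold.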

Additional observations from a re-analysis of the deposited data

How the results depend on the processing

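Of 27 named members tested against Stmn1, 419 of 458 values under the alternatives kept the sign of the reported difference. Leaving out the replicate block or changing the detection filter cannot change a difference, so those values kept their sign by design and carry no information. Of all these values 5 passed limma's adjusted p of 0.05, all with Stmn1 of at least 4, a cut chosen after seeing the data: Mrpl17 (2.86), Mrpl18 (2.52), Mrpl42 (2.58), Mrpl52 (2.95) and Mrps14 (2.46). At that cut 11 members were called with a median difference of 1.10, and 1 with 1.05 after pairing by genes detected (also chosen later); 0 were called under every other alternative. The members' median difference of 0.59 became 0.32 with a pseudocount of 10, 0.16 with mean linear values, 0.48 with a planned cut at the top 50% of cells, which took every Stmn1-positive cell (19 in March, the same class, and 33 in April), 0.51 with a linear Stmn1 of at least 1, 0.41 with the top 25% per run, 0.55 in cells matched on genes detected, 0.68 without Mar1 cells and 0.32 after quantile normalization, and ranged from 0.53 to 0.57 when a replicate was left out, where no test was possible. The count of 23 higher at the unadjusted p (9.91% of all genes) became 14 without the replicate block (6.79%), 15 with a pseudocount of 10 (7.30%), 0 with mean linear values (1.64%), 12 with a linear Stmn1 of at least 1 (7.93%), 8 with the top 25% per run (5.24%) and 7 after quantile normalization (4.97%). Members lower at that threshold numbered 1 of 74 with the pseudocount of 10, and 2 each with mean linear values, quantile normalization and matching on genes detected. Of all 10794 genes tested, 278, 513, 406 and 208 were lower in these settings. Median member rho was 0.019 in March and 0.016 in April with genes detected regressed out, and 0.027 within run Mar1. The large minus small difference was 0.27 and 0.25 for members detected in at least 25% of cells, and 0.23 and 0.28 by location. Median detection was 31.7% and 30.2% at a linear value of 1. Members lower in April numbered 17 after quantile normalization (20.6% of all genes) and 28 without Mar1 (34.6%), beside 16 and 25 higher (20.0% and 32.5%). The causes were not tested. The read depth behind each value is unknown, so absence of a member in a cell is a value of 0 in the table and not absence of its RNA.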
